A study of Saccharomyces cerevisiae with 61 samples.

Results

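The genes described here encode the enzymes of lower glycolysis in budding yeast, the steps from fructose-1,6-bisphosphate to pyruvate. They were chosen by symbol and comprise 10 of the 5592 named genes on the arrays: FBA1 (YKL060C), TPI1 (YDR050C), TDH1 (YJL052W), TDH2 (YJR009C), TDH3 (YGR192C), PGK1 (YCR012W), GPM1 (YKL152C), ENO1 (YGR254W), ENO2 (YHR174W) and CDC19 (YAL038W). Each has 1 probe, and none of the 10 was left out. Fba1 (aldolase) splits fructose-1,6-bisphosphate into a pair of triose phosphates, and Tpi1 (triose phosphate isomerase) interconverts them. Tdh1, Tdh2 and Tdh3 are isozymes of glyceraldehyde-3-phosphate dehydrogenase, Pgk1 (phosphoglycerate kinase) makes ATP, Gpm1 is phosphoglycerate mutase, Eno1 and Eno2 are enolases, and Cdc19 is the main pyruvate kinase. In yeast their transcripts are among the most abundant, and their promoters are known targets of the activators Gcr1 and Gcr2 together with Rap1. Tdh3 is known as the main dehydrogenase of growing cells and Tdh1 as the isozyme of slow growth and stress, while ENO2 is known as the glucose-induced and ENO1 as the more constant enolase gene.

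All samples are total RNA of Saccharomyces cerevisiae BY4741, a MATa laboratory strain, released from mating pheromone arrest, and the series asks how replication stress acts on gene expression, with the roles of Rad53, a checkpoint kinase, and Nrm1, a corepressor of G1/S genes. Wild-type cells in 0.2 M hydroxyurea (HU, a ribonucleotide reductase inhibitor), 0.033% methyl methanesulfonate (MMS, an alkylating agent) or 50 µM camptothecin (CPT, a topoisomerase I inhibitor) and untreated wild-type cells were sampled at 30, 45, 60 and 75 min, in 2 replicates. The rad53Δ cells, which lack the checkpoint kinase, were sampled at 30 and 75 min in HU, in MMS and untreated, also in 2 replicates, and each strain has a single untreated 0 min extract. A further strain, labelled galsicΔP, was sampled at 0, 40 and 100 min and, with nrm1Δ added, at 40 and 100 min, always untreated and with 2 extracts a group. The labels spell out neither the galsicΔP allele nor the carbon source, and nothing in them says that replicates came from separate cultures, so p-values measure only the spread between these samples.

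The 61 two-colour arrays join 56 RNA extracts in loops, and their values are log ratios of Cy5 over Cy3 RNA, with a logarithm taken as base 2. Extract levels were solved from the loops, and every value below is a log2 difference between levels of the same probe, since levels of different probes cannot be compared. "Rose" and "fell" mark an adjusted p below 0.05 over all 6249 features. The files used here hold no intensities, and the number of extracts limits precision. In RNA of whole cultures, fewer cells of a type and less RNA per cell cannot be told apart. The members varied more than most genes within groups: their residual SD lay between the 70.5th percentile (GPM1, 0.198) and the 98.1st percentile (ENO2, 0.397) of all features, where the median feature had 0.163. Ratios added around a loop give 0 where its arrays agree and dyes are even. The members' median sum was -1.06 in the first galsicΔP loop (6 arrays), -1.71 in the second (4 arrays) and -1.35 in the 45 min loop of wild-type replicate 2 (4 arrays). In the other 12 loops it lay between -0.47 and 0.78. NRM1 was -3.77, -4.58, -3.28 and -5.04 in nrm1Δ against parent extracts, which checks that label, while RAD53 cannot be checked because every rad53Δ array carries rad53Δ RNA in both channels.

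Averaged over the 4 times, 7 of the 10 lower glycolysis genes rose in wild-type cells in HU against untreated cells, and none fell. Among all features 15.8% rose. The members' median difference was 0.53, with a range of 0.26 to 0.73, against -0.004 for all features. TPI1 was 0.39, 0.48, 0.99 and 1.29 above untreated at 30, 45, 60 and 75 min in replicate 1, and 0.15, 0.62, 0.62 and 0.59 in replicate 2. All 8 values were above 0, and the mean was 0.64 ± 0.10 (SE, adjusted p = 2.6e-05), a 1.56-fold rise. GPM1 was positive in all 8 pairs too, from 0.05 through a median of 0.61 to 1.21, with a mean of 0.59 ± 0.10 (SE, adjusted p = 5.8e-05).

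The dehydrogenase gene TDH3 was 0.22, 1.28, 0.72 and 1.08 above untreated in replicate 1 and -0.13, 0.16, 1.46 and 1.08 in replicate 2 over the same times. Its mean of 0.73 ± 0.17 (SE, adjusted p = 0.002), a 1.66-fold rise, was the highest of the 10 in HU. TDH1 averaged 0.64 (adjusted p = 0.0041) and TDH2 0.59 (adjusted p = 0.0031), each with 1 or 2 of 8 pairs below 0. PGK1 averaged 0.46 (adjusted p = 0.0015) and FBA1 0.45 (adjusted p = 0.0068), with all 8 pairs above 0 for both. ENO1 (mean 0.37, adjusted p = 0.12), ENO2 (0.43, adjusted p = 0.1) and CDC19 (0.26, adjusted p = 0.18) did not pass, each positive in 7 of 8 pairs. The ENO2 mean lay near those of PGK1 and FBA1, but its residual SD was larger (0.397, against 0.212 and 0.249).

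**Figure D1:**
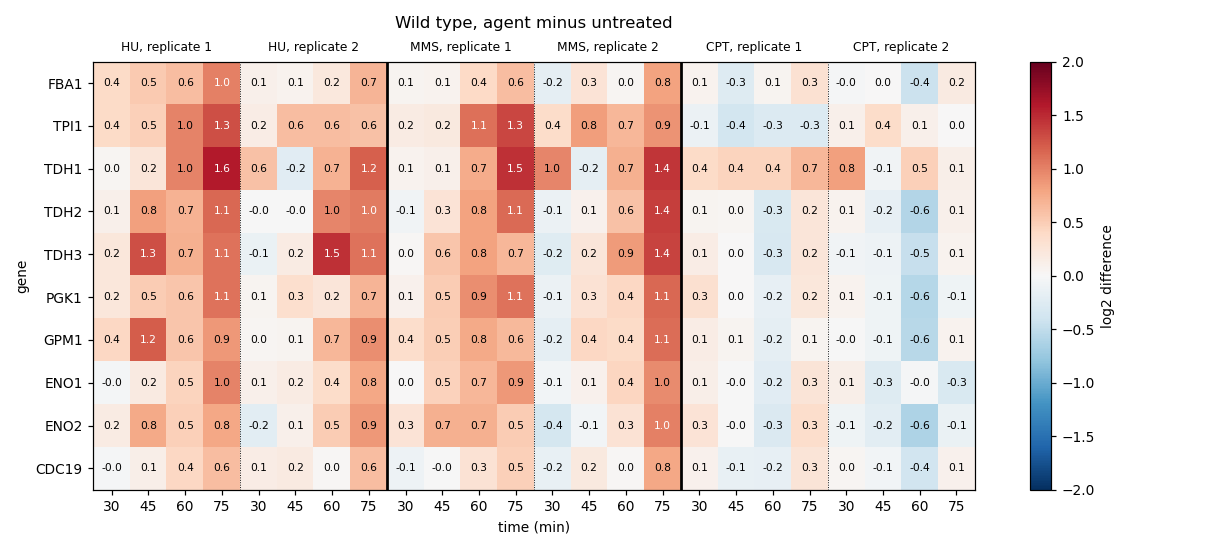
Log2 difference between each agent and untreated wild-type cells for the 10 lower glycolysis genes (rows), by replicate and time in minutes (columns), with the value in each cell and red for higher in the agent. In HU and MMS all 10 genes are above 0 at 60 and 75 min in both replicates, with 75 min values from 0.47 to 1.58; the CPT values show no such block.

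In MMS 7 of the 10 genes also rose against untreated cells and none fell, where 28.0% of all features rose. The median difference was 0.50 and the range 0.19 to 0.70. TPI1 was 0.16, 0.20, 1.11 and 1.33 above untreated at 30, 45, 60 and 75 min in replicate 1 and 0.36, 0.84, 0.67 and 0.90 in replicate 2, again positive in all 8 pairs, with a mean of 0.70 ± 0.10 (SE, adjusted p = 2e-06). PGK1 was 0.09, 0.51, 0.93 and 1.08 in replicate 1 and -0.12, 0.29, 0.42 and 1.14 in replicate 2. Its mean was 0.54 ± 0.11 (SE, adjusted p = 1e-04), and the single value below 0 was that at 30 min in replicate 2. GPM1 averaged 0.50 (adjusted p = 0.00014), TDH1 0.67 (adjusted p = 0.0013), TDH2 0.51 (adjusted p = 0.0049), TDH3 0.53 (adjusted p = 0.011) and ENO1 0.43 (adjusted p = 0.045). FBA1 (0.26, adjusted p = 0.075), ENO2 (0.38, adjusted p = 0.1) and CDC19 (0.19, adjusted p = 0.27) did not pass.

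HU and MMS share their untreated samples, so they were set against each other by a contrast of their own. None of the 10 genes passed in MMS minus HU, although 41.2% of all features did. The members' differences ran from -0.20 for TDH3 to 0.08 for PGK1, with SEs of 0.10 to 0.20.

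None of the 10 genes passed in CPT against untreated cells, where 6.02% of all features did in either direction, and the members' median was -0.05. Of the 10, 9 had means between -0.09 and -0.01. TDH1 stood apart at 0.41 ± 0.17 (SE, adjusted p = 0.13), with values of 0.38, 0.45, 0.45 and 0.66 at 30 to 75 min in replicate 1 and 0.81, -0.07, 0.47 and 0.11 in replicate 2. It passed with the wild-type extracts in a fit of their own (adjusted p = 0.047), where 0.448% of all features rose, and with arrays scaled to equal spread (0.44, adjusted p = 0.04), where 3.68% rose. Without replicate 2, TPI1 alone passed and was lower in CPT, as were 15.6% of features. For the other genes the 95% intervals reached no higher than 0.33 (ENO1) and no lower than -0.50 (ENO2). CPT was also set directly against the other agents, in contrasts that share the CPT extracts. Against HU, 7 of the 10 were lower in CPT, as were 14.9% of all features, and all 10 differences were negative (median -0.51). Against MMS, 7 of the 10 were lower in CPT too, as were 27.3% of all features, and again all 10 differences were negative (median -0.52). TPI1 differed most from MMS, by -0.75 (adjusted p = 7.7e-07), and TDH3 most from HU, by -0.80 (adjusted p = 0.0015). With either replicate left out, fewer genes passed against both agents, and against MMS the number lay near the share of all features each time. The members' median was -0.49 against HU and -0.52 against MMS without replicate 1. It was -0.54 and -0.48 without replicate 2.

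The gap between agent and untreated cells was wider at later times. In HU the members' median difference was 0.19, 0.51, 0.59 and 1.04 at 30, 45, 60 and 75 min in replicate 1, and 0.07, 0.13, 0.57 and 0.82 in replicate 2. In MMS the medians were 0.06, 0.37, 0.75 and 0.76 in replicate 1 and -0.14, 0.22, 0.43 and 1.06 in replicate 2. At 75 min every one of the 10 genes was above untreated in both agents and both replicates, while at 30 min the MMS values of replicate 2 were above 0 in 2 of 10 genes.

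Tested as the effect at 75 min minus that at 30 min, the gap in MMS passed for 4 of the 10 genes, where 11.4% of all features passed upwards. TDH2 had 1.20 and 1.50 in the 2 replicates (mean 1.35, adjusted p = 0.021) and PGK1 0.99 and 1.26 (mean 1.13, adjusted p = 0.0079). TPI1 had 1.17 and 0.54 (mean 0.86, adjusted p = 0.031) and GPM1 0.30 and 1.30 (mean 0.80, adjusted p = 0.041). Which genes passed depended on the fit. With the wild-type extracts in a fit of their own 7 passed (9.76% of features upwards), but not TPI1 (adjusted p = 0.081) and GPM1 (adjusted p = 0.089). With arrays scaled to equal spread FBA1, TDH2, PGK1 and CDC19 passed (11.1%). With slide terms 8 passed (13.4%), TPI1 and GPM1 among them. Without replicate 1 GPM1 alone passed (9.06% of features upwards), and without replicate 2 TPI1 alone (7.30%), both counts near those shares. In HU all 10 mean differences were positive (median 0.79, from 0.55 to 1.08), but none passed, where 8.07% of all features passed in either direction. In CPT none of the 10 passed (1.42% of all features did), and the median was 0.01.

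The 0 min extract of replicate 1 gives the level of each side of that gap, as a description of single extracts without a test. In HU the members' median level against 0 min was 0.13, 0.22, 0.40 and 0.43 at 30, 45, 60 and 75 min, and in MMS 0.01, 0.06, 0.34 and 0.29. In CPT it was 0.08, -0.45, -0.56 and -0.33, and in untreated cells -0.05, -0.34, -0.34 and -0.57, so both lay below 0 min from 45 min on. In untreated cells all 10 genes were below their 0 min level at 60 and 75 min, and TDH1, at 0.31, -0.04, -0.44 and -1.04 over the 4 times, was the lowest at 75 min. At 75 min all 10 genes were above 0 min in HU and in MMS, and all 10 were below it in CPT and in untreated cells. TPI1 at 75 min was at 0.49 in HU and 0.52 in MMS, against -0.81 in untreated cells. Replicate 2 has a separate loop for each time and no 0 min extract, so it gives no such course.

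**Figure D2:**
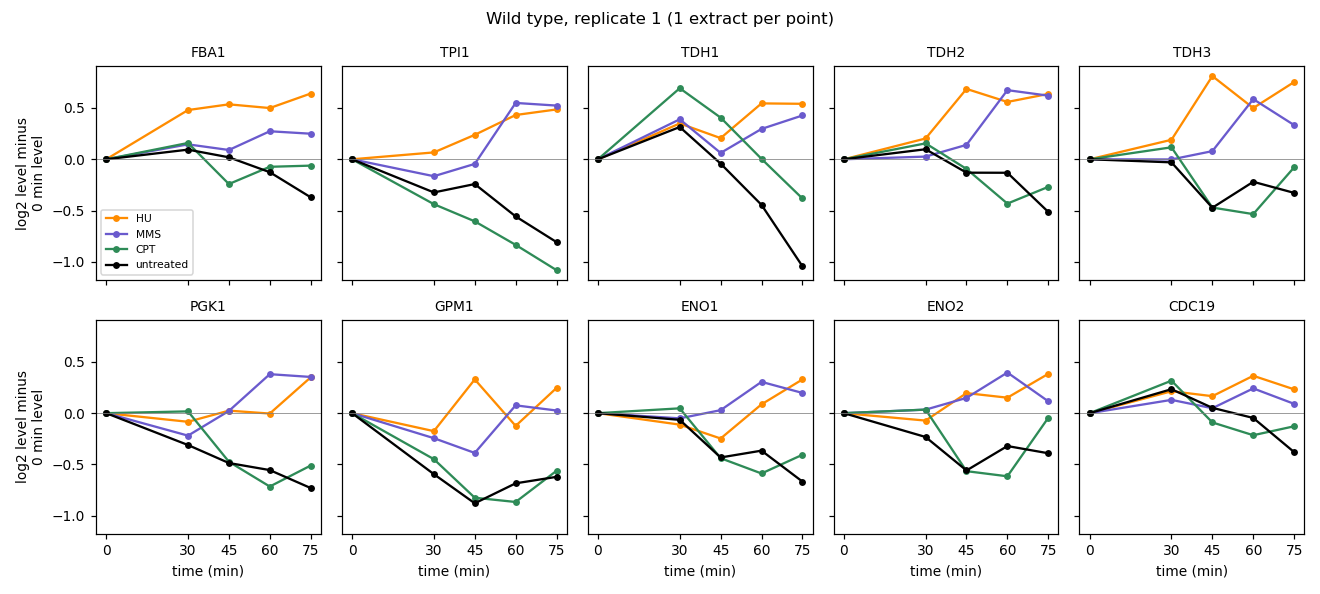
Log2 level of each lower glycolysis gene minus its 0 min level (y axis) by time in minutes (x axis) in wild-type replicate 1, with 1 extract per point, for HU, MMS, CPT and untreated cells. At 75 min the HU and MMS lines end above 0 in all 10 panels and the CPT and untreated lines below 0.

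Other gene lists are set against the shares of all features that rose (above) or fell, 17.3% in HU and 30.2% in MMS. Of 10 genes of upper glycolysis, 5 rose in HU and 5 in MMS, with 0 and 3 lower. The hexokinase genes GLK1 (1.43 in HU, 2.03 in MMS) and HXK1 (1.35 in HU, 1.26 in MMS), known for their induction in stress and on poor carbon sources, changed most. Among 6 minor paralogs of lower glycolysis enzymes, 1 rose in each agent, GPM2, a homolog of GPM1, by 1.21 in HU and 1.35 in MMS. PYK2, the minor pyruvate kinase gene, had 0.27 in HU (adjusted p = 0.21) and 0.26 in MMS (adjusted p = 0.17).

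In alcoholic fermentation 2 of 12 genes rose in HU and 2 rose and 2 fell in MMS. The alcohol dehydrogenase gene ADH1, whose enzyme regenerates NAD+ for glycolysis, rose by 0.34 in HU (adjusted p = 0.011) and by 0.53 in MMS. In glycerol synthesis 3 of 4 genes rose in HU, and 2 rose and 2 fell in MMS. The pentose phosphate list of 11 had 4 higher and 1 lower in HU, and 5 higher and 4 lower in MMS. In MMS its ZWF1, for the enzyme of NADPH production at the entry of that pathway, rose by 1.21 and RKI1 fell by 1.32. Gluconeogenesis and glyoxylate genes had 0 of 7 higher and 1 lower in HU, and 1 higher and 4 lower in MMS.

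Of 6 transcription factors known to act on glycolytic genes, 0 rose in either agent. In HU 1 fell, RAP1 (by 0.35), and in MMS 3 fell, with GCR1 changed by -0.69 and TYE7 by -0.66. For HU this count is near the share of all features that fell, and for MMS 3 of 6 stands beside 30.2%. The glucose repression list of 11 had 3 higher and 1 lower in HU and 2 higher and 3 lower in MMS.

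Of 12 general stress genes of the Msn2/4 type, 11 rose in HU (median 0.68), 12 in MMS (median 0.96) and 2 in CPT (median 0.17), where 2.48% of all features rose. DDR2, a multistress response gene, had a difference of 1.81 in HU and 2.17 in MMS, and TSL1, for a subunit of trehalose synthase, had 1.60 and 1.84. Of 7 genes that mark a cells, 2 fell in HU, where 17.3% of all features did, and 5 in MMS, where 30.2% did, and of 6 alpha-cell genes 1 rose in each and 1 fell in MMS. Of 8 galactose genes, 1 rose and 1 fell in HU and 2 rose and 2 fell in MMS. The part of the stress list in the glycolytic changes was not tested.

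The number of calls depended on the fit. Reduced to 1 value per replicate and treatment, TPI1 and GPM1 alone rose in HU (3.95% of all features) and in MMS (16%). Without replicate 1 the same 2 genes rose in HU (12.8%) and in MMS (24.8%). Without replicate 2 the counts were 4 in HU (13.8%) and 3 in MMS (24.3%). In MMS these counts are thus close to the shares of all features, as is the HU count without replicate 1. With the wild-type extracts in a fit of their own, all 10 genes rose in HU (14.7%) and in MMS (27.0%), and 4 passed upwards in the HU difference between 75 and 30 min (2.59%).

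In rad53Δ cells none of the 10 genes passed in HU against untreated cells, where 7.15% of all features did, and the members' median was -0.03. The genes split: TPI1, TDH1, GPM1 and ENO1 were above untreated in all 4 pairs of replicate and time, with means of 0.35, 0.36, 0.33 and 0.30, whereas CDC19 was below it in all 4 (mean -0.34). TPI1 had 0.41 and 0.38 at 30 and 75 min in replicate 1 and 0.36 and 0.27 in replicate 2 (adjusted p = 0.13). CDC19 had -0.87 and -0.01 in replicate 1 and -0.37 and -0.11 in replicate 2 (adjusted p = 0.36). With rad53Δ extracts fitted alone, 6 of the 10 passed in rad53Δ HU, those 4 upwards (18.1% of all features) and CDC19 and ENO2 downwards (14%).

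In MMS none of the 10 passed in rad53Δ cells either, where 13.4% of all features did. The median was 0.09, and the means ran from -0.10 for TDH1 to 0.32 for GPM1 (adjusted p = 0.14). GPM1 and ENO1 were above untreated in all 4 pairs. In the fit of rad53Δ alone 3 passed upwards, TPI1, GPM1 and ENO1, but so did 20.8% of all features, and 38.3% passed in either direction. MMS against HU in rad53Δ also had none of the 10, against 19.5% of all features, with a range from -0.46 for TDH1 to 0.39 for PGK1. Fitted alone, 4 passed there, TDH1 lower and PGK1, ENO2 and CDC19 higher in MMS, about the share of all features that passed in that fit (44.5%).

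**Figure D3:**
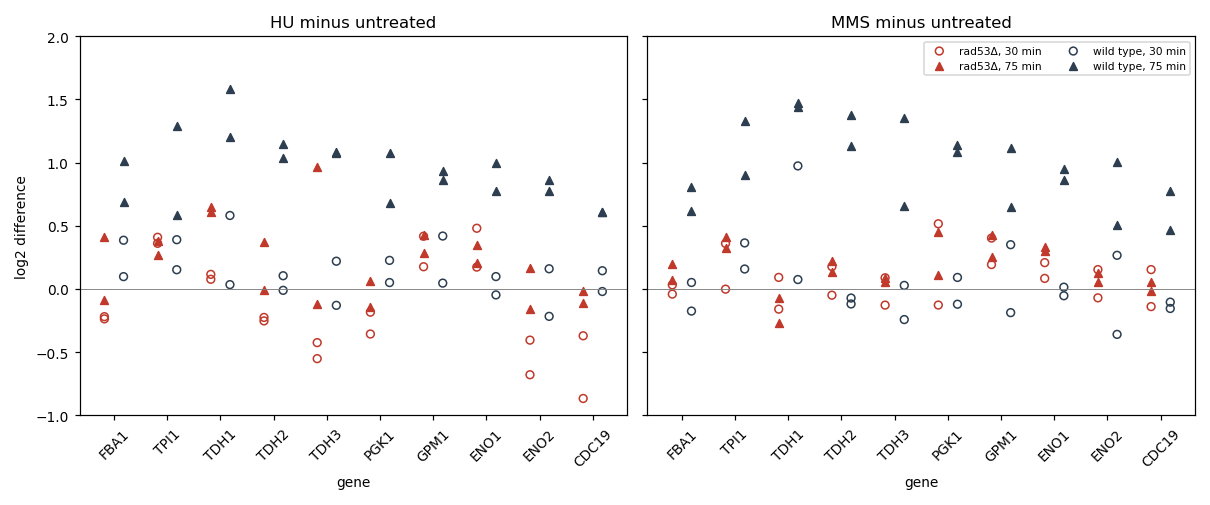
Log2 difference between agent and untreated cells (y axis) for each lower glycolysis gene (x axis) in rad53Δ (red, left) and wild-type cells (dark, right), with open circles for 30 min and filled triangles for 75 min, 1 point per replicate. In both panels the wild-type triangles lie above the rad53Δ triangles for all 10 genes, with 75 min values from -0.27 to 0.97 in rad53Δ and from 0.47 to 1.58 in wild type.

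The difference between the strains was tested over 30 and 75 min. No array joined the strains, so their replicates are matched below by number only. For HU, all 10 genes had a smaller response in rad53Δ than in wild-type cells (median -0.59, range -0.68 to -0.15), yet none passed, where 2.80% of all features did. PGK1 came nearest, with -0.71 and -0.62 in the 2 replicates, a mean of -0.66 and a 95% interval of -1.10 to -0.23 (adjusted p = 0.1). With arrays scaled to equal spread PGK1 and CDC19 passed, lower in rad53Δ, as did 0.704% of all features, and with block means subtracted in place of block terms PGK1 did (1.71%). For MMS all 10 differences were negative as well (median -0.30), and 1 of the 10 passed, where 3.44% of all features passed downwards. That gene, TDH1, had a difference of -0.76 in replicate 1 and -1.42 in replicate 2, with a mean of -1.09 ± 0.33 (SE, adjusted p = 0.044). Its MMS response was 0.09 and -0.07 at 30 and 75 min in replicate 1 and -0.16 and -0.27 in replicate 2 of rad53Δ, against 0.07 and 1.47 in replicate 1 and 0.97 and 1.44 in replicate 2 of wild type. The call ended without the 3 arrays whose labels conflict (adjusted p = 0.12), on 1 value per replicate and treatment (adjusted p = 0.49) and in each fit that left out 1 replicate of either strain.

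At 75 min alone, a time picked after the values were seen, both rad53Δ values lay below both wild-type values for 10 of 10 genes in HU, where this held for 28.9% of all features, and for 10 of 10 in MMS, where it held for 28.6%. The 20 HU values at that time spanned -0.16 to 0.97 in rad53Δ, against 0.59 to 1.58 in wild type. The 20 MMS values spanned -0.27 to 0.45 in rad53Δ, against 0.47 to 1.47 in wild type.

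Untreated rad53Δ cells had members' medians of -0.24 at 30 min and -0.28 at 75 min against their 0 min extract in replicate 1, with all 10 genes below 0 min at both times. Untreated wild-type cells of replicate 1 had -0.05 and -0.57 at those times. TDH1 was at -0.28 at 75 min in untreated rad53Δ cells, against -1.04 in untreated wild-type cells, each from 1 extract. The general stress list moved beside this: 2 of its 12 genes were lower in the HU strain difference (median -0.42), where 1.39% of all features were, and 9 of 12 in the MMS strain difference (median -0.97), where 3.44% were. The part of that list in the glycolytic differences was not tested.

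The 2 galsicΔP extracts at 0 min differed strongly in these genes. Replicate 1 exceeded replicate 2 by 2.20 for ENO2, 2.12 for ENO1, 1.73 for TDH1, 1.63 for CDC19, 1.43 for TDH2, 1.28 for FBA1, 0.93 for PGK1, 0.85 for TDH3, 0.40 for GPM1 and 0.07 for TPI1. All 10 were thus higher in replicate 1, with a median of 1.35, whereas the median absolute difference over all features was 0.261. Galactose genes (7 of 8 higher in replicate 1, GAL1 by 1.63) and general stress genes (9 of 12 higher, median 0.69) differed the same way, and the cause was not tested.

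At 40 min, 4 of the 10 genes rose against 0 min, where 28.8% of all features did. Both 0 min extracts lie in the first loop, and the values against each share its 40 min extract. The fitted difference also draws on the 40 min extract of the second loop, so it is not the mean of the pair of values. FBA1 was 0.88 above the first 0 min extract and 2.16 above the second (fitted difference 1.54, adjusted p = 2.1e-05), and TPI1 0.67 and 0.74 (fitted 0.73, adjusted p = 0.0051). CDC19 had 0.34 and 1.97 (fitted 1.02, adjusted p = 0.0058) and TDH1 0.24 and 1.97 (fitted 1.01, adjusted p = 0.017). ENO1 was -1.65 against the first extract and 0.46 against the second (fitted -0.76, adjusted p = 0.094), so its direction turned with the extract chosen, and so did that of TDH2, TDH3, PGK1 and ENO2.

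The calls rest on those extracts. The members' median fitted difference was 0.22 with both, -0.51 without replicate 2 at 0 min and 0.59 without replicate 1. Without replicate 2, TDH1 shrank to 0.14 and CDC19 to 0.21, while TDH2 was at -1.09 and ENO1 at -1.82. Without replicate 1, ENO2 was at 1.58. Each of these fits leaves 1 extract at 0 min, so their calls are not counted. None of the 10 passed when the arrays were scaled to equal spread, where 12% of all features did. With galsicΔP arrays fitted alone, only FBA1 and TPI1 rose, where 26.9% of all features did, so that count lay near the share. The galactose list rose by a median of 4.42 between these times, with 6 of 8 genes higher and GAL7 by 8.52. Its part in the change of glycolytic genes was not tested.

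From 40 to 100 min, in nrm1Δ cells 10 of 10 rose, where 7.14% of all features did, with a median of 1.37. In the parent 7 of 10 rose, where 13.5% of all features did, with a median of 0.91, while TDH1, TDH3 and CDC19 did not pass. ENO2 was 2.53 and 1.91 higher at 100 min than at 40 min in the 2 loops of nrm1Δ (mean 2.22, adjusted p = 0.00035), against 1.84 and 1.85 in the parent (mean 1.84, adjusted p = 0.00097). ENO1 had 2.42 and 2.06 in nrm1Δ (mean 2.24, adjusted p = 0.00011), against 1.68 and 1.35 in the parent (mean 1.51, adjusted p = 0.0025). The enolase genes had the highest means of the 10 in both strains, and their single values did not fall below 1.91 in nrm1Δ and 1.35 in the parent.

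GPM1 rose by 1.44 in nrm1Δ and by 1.38 in the parent, and PGK1 by 1.30 in nrm1Δ, with 1.57 and 1.23 in the 2 loops of the parent (adjusted p = 1.8e-05). TDH2 rose by 1.50 in nrm1Δ and 1.04 in the parent, FBA1 by 1.46 in nrm1Δ and 0.78 in the parent, and TPI1 by 0.69 in both. TDH1 had 1.45 and 1.13 in nrm1Δ (mean 1.29, adjusted p = 0.0096), against 0.48 and -0.11 in the parent (mean 0.19, adjusted p = 0.74). CDC19 had a mean of 1.14 in nrm1Δ (adjusted p = 0.0083), against 0.74 in the parent (adjusted p = 0.057), and TDH3 of 1.05 (adjusted p = 0.044), against 0.71 (adjusted p = 0.14). The difference between the 2 courses passed for none of the 10, where 2.77% of all features passed, and TDH1 had the largest, 0.96 and 1.24 in the 2 loops (adjusted p = 0.29). With galsicΔP arrays fitted alone, 2 of the 10 rose in nrm1Δ (2.53% of all features) and 3 in the parent (9.47%).

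Of 12 general stress genes, 9 fell in nrm1Δ (median -1.07), where 6.90% of all features fell, and 10 in the parent (median -1.38), where 14.4% fell. Of 10 upper glycolysis genes, 1 rose and 2 fell in nrm1Δ, and 2 rose and 3 fell in the parent, with GLK1 at -1.03 in nrm1Δ (adjusted p = 0.018) and -1.04 in the parent (adjusted p = 0.008). ADH1 rose by 1.63 in nrm1Δ and by 1.28 in the parent. Of the genes marking a cells, 3 of 7 fell in nrm1Δ and 6 of 7 in the parent.

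**Figure D4:**
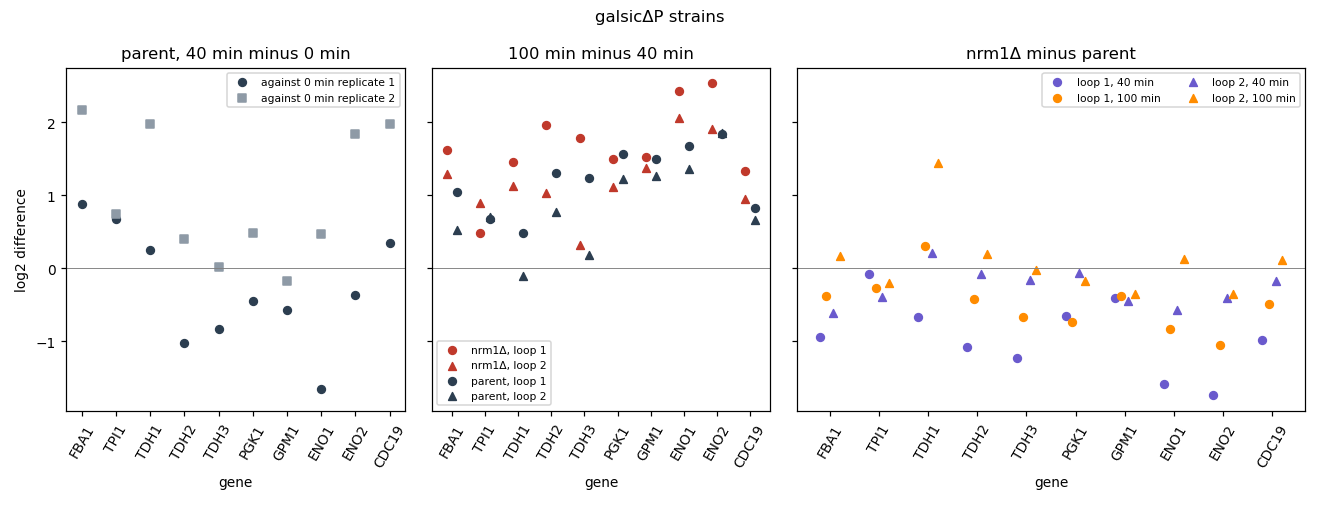
Log2 differences (y axis) of the 10 lower glycolysis genes (x axis) in galsicΔP strains: 40 min minus each 0 min extract in the parent (left), 100 min minus 40 min in nrm1Δ (red) and parent (dark) by loop (middle), and nrm1Δ minus parent by loop and time (right). The squares and circles of the left panel lie up to 2.20 apart, whereas in the middle panel all nrm1Δ points, and all parent points but TDH1 in loop 2 (-0.11), lie above 0.

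Averaged over 40 and 100 min, 4 of the 10 genes were lower in nrm1Δ than in parent cells, where 17.2% of all features were. ENO2 was -1.74 and -1.05 at 40 and 100 min in the first loop and -0.41 and -0.35 in the second (mean -0.89, adjusted p = 0.017). ENO1 was -1.58 and -0.83 in the first loop and -0.57 and 0.13 in the second (mean -0.71, adjusted p = 0.034). PGK1 (mean -0.41, adjusted p = 0.04) and GPM1 (mean -0.40, adjusted p = 0.032) were below the parent in all 4 pairs, GPM1 within -0.45 to -0.35. TDH1 had the only positive mean, 0.32 (adjusted p = 0.32), with -0.66, 0.30, 0.20 and 1.44.

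The members' medians were -0.97 and -0.45 at 40 and 100 min in the first loop and -0.29 and 0.04 in the second. Without the first loop none of those 4 genes passed and TDH1 was higher in nrm1Δ (0.82, adjusted p = 0.0015), as were 8.64% of all features. Without the second, GPM1 no longer passed, and TDH2 and TDH3 were lower as well, 5 of 10 where 13% of features were lower. With equal spread of arrays none of the 10 passed, where 4.22% of features did. With galsicΔP arrays fitted alone, GPM1 was the only member lower in nrm1Δ, where 11.6% of all features were, so that count lay near the share. Other lists were lower in nrm1Δ too: 8 of 8 galactose genes (median -0.77), 10 of 12 general stress genes (median -0.77), 6 of 10 upper glycolysis genes (median -0.54) and 6 of 7 a-cell genes (median -1.74). Their part in the lower enolase levels was not tested.

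The isozyme genes can be compared in how they changed, not in level. TDH2 and TDH3 are near-identical in sequence, as are ENO1 and ENO2, and whether each probe reads 1 gene alone was not tested. Over the 54 extracts of the fit, centred within blocks (a replicate's extracts of 1 time, or a galsicΔP loop), TDH2 and TDH3 correlated at r = 0.93, ENO1 and ENO2 at 0.87, TDH1 and TDH2 at 0.65 and TDH1 and TDH3 at 0.51, the lowest of the 45 pairs of members (median 0.74). These are descriptions over extracts that share arrays and loops. The difference between paralogs was tested with every feature expressed relative to TDH3, TDH2 or ENO2. Since all features then share that gene's error, the SE of the pair in a fit of its own, without moderation and with 20 residual degrees of freedom, is given beside each call; that fit was chosen after seeing the data.

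In CPT against HU, TDH1 had -0.23, against -0.80 for TDH3 and -0.66 for TDH2. Its difference from TDH3 was 0.56 (adjusted p = 0.0082, own-fit SE 0.18), and 95.0% of all features passed that test. The difference from TDH2 was 0.43 (adjusted p = 0.013, own-fit SE 0.10), where 90.5% of features passed. With shares that high, nothing particular to TDH1 is read from these calls. In CPT against untreated cells TDH1 exceeded TDH2 by 0.48, with all 8 pairs above 0 (adjusted p = 0.31, own-fit SE 0.10).

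In galsicΔP from 0 to 40 min, TDH1 changed by 1.36 more than TDH3 (adjusted p = 0.012, own-fit SE 0.37, 18.9% of features) and by 1.39 more than TDH2 (adjusted p = 0.0011, own-fit SE 0.22, 24.3% of features). These are fitted differences. Against TDH2 the difference was 1.27 and 1.57 for the 2 extracts at 0 min, so it depended less on the extract than the genes themselves did. Against TDH3 it was 1.07 and 1.96, so it depended on the extract about as much as TDH3 itself, which differed by 0.85. Between 40 and 100 min in the parent TDH1 minus TDH2 was -0.88 and -0.82 in the 2 loops (mean -0.85, adjusted p = 0.019, own-fit SE 0.21), where 77.4% of features passed. TDH2 itself changed by 1.04 there and TDH1 by 0.19. With a share that high, nothing particular to TDH1 is read from this call either. In nrm1Δ against parent cells TDH1 exceeded TDH3 by 0.84 (adjusted p = 0.031, own-fit SE 0.25, 19.6% of features) and TDH2 by 0.67 (adjusted p = 0.045, own-fit SE 0.15, 10.9% of features), positive in all 4 pairs both times. All 7 of these TDH1 calls kept their sign under the alternatives and lost significance under some, with 6 to 9 of 10 to 12 alternatives passing. Each of these counts includes the pair's own fit, which was judged by its unadjusted p.

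**Figure D5:**
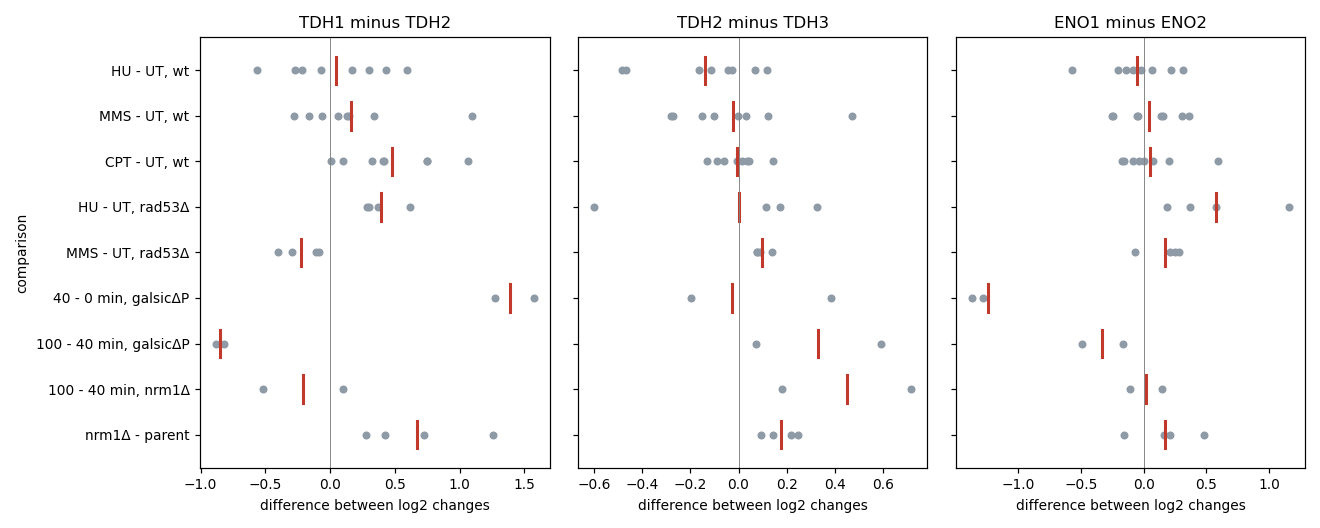
Difference between the log2 changes of 2 paralogs (x axis; panels TDH1 minus TDH2, TDH2 minus TDH3 and ENO1 minus ENO2) in 9 comparisons (y axis), with grey points for pairs of replicate and time or loop and a red bar for the fitted difference. TDH1 minus TDH2 reaches 1.39 from 0 to 40 min in galsicΔP and -0.85 from 40 to 100 min, while ENO1 minus ENO2 reaches -1.24 from 0 to 40 min.

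Relative to TDH3, TDH2 did not pass in any comparison (smallest adjusted p = 0.3). In the pair's own fit the smallest unadjusted p was 0.026, for a difference of 0.45 in nrm1Δ from 40 to 100 min. In wild type their difference in response was -0.14 in HU, -0.02 in MMS and -0.01 in CPT, each with an SE of 0.09 in its own fit. ENO1 minus ENO2 did not pass in the fit relative to ENO2 either, with a smallest adjusted p of 0.056. In the pair's own fit the smallest unadjusted p was 4.2e-06, from 0 to 40 min in galsicΔP. For rad53Δ it was 0.00032 in HU, 0.006 in MMS against HU and 0.013 in the HU strain difference. In wild type ENO1 minus ENO2 was -0.05 in HU (95% interval -0.51 to 0.41), 0.04 in MMS (-0.41 to 0.50) and 0.05 in CPT (-0.41 to 0.51). These intervals come from the fit relative to ENO2, with an SE of 0.23. In the pair's own fit the SE was 0.09 for each. From 0 to 40 min in galsicΔP it was -1.28 against the first 0 min extract and -1.37 against the second, with a fitted difference of -1.24, which also draws on the second loop (adjusted p = 0.056, own-fit SE 0.20), ENO1 lower. In rad53Δ cells in HU it was 0.57, positive in all 4 pairs (adjusted p = 0.77, own-fit SE 0.13).

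Across the 54 centred extracts, the genes most like the mean of the 10 members were MUP1 (r = 0.84), ADH1 (0.84), CIN1 (0.82), HSP60 (0.81) and TRP5 (0.77). Those most like TDH1 were PMT1 (0.76), TRP5 (0.75), VMA2, LSC2 and TAL1 (0.75, 0.75 and 0.74), and those most like ENO1 were LAP3 (0.85), HSP60 (0.81), MET13 (0.80), GCV2 (0.78) and CHO2 (0.78). Of the 3 lists, TRP5 and HSP60 stand in more than 1. Among the members themselves, FBA1 and CDC19 (r = 0.93) and TDH2 and PGK1 (r = 0.92) were most alike beside the TDH2 and TDH3 pair.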

How the data were processed

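Total RNA was hybridised on 61 two-colour arrays of 6266 probes, with 2 labelled RNAs on each. The authors deposited 1 value per probe and array, taken as a log2 ratio of Cy5 over Cy3. The sources used here state neither the base nor the normalisation, and the submitters' processing notes name limma. On 3 arrays label fields conflict (2 titled MMS at 0 min, used as untreated, and 1 at 30 or 75 min, used as 30), and on 6 galsicΔP arrays the genotype entry was overridden by title and source name.

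Probes of a gene were averaged (6249 features). Extract levels were solved per feature by least squares with a dye term, then 54 extracts in 27 groups with 14 blocks (a loop in galsicΔP, otherwise the extracts sharing strain, replicate and time) were fitted together with limma 3.58.1 in R 4.3.3 (20 residual degrees of freedom) and adjusted by Benjamini-Hochberg within each of 19 comparisons at 0.05. Times of a replicate count as separate samples. Wild-type and rad53Δ extracts of 0 min took no part. In wild type and rad53Δ, arrays joined the replicate 2 extracts of a block directly in 1 loop, so that pairing comes from the hybridisation design. In replicate 1 each treatment had its own loop over time, joined to the others only through the 0 min extract. Pairing by time was a choice of the fit there, and treatment and loop cannot be told apart. No array joined wild type with rad53Δ, whose replicates share only a number. The code was tested on simulated data. Members and 12 other gene lists were chosen with earlier results of these data known. Every member is described; of the other lists, counts, medians and at most 2 called genes are given, with genes of the question at hand (PYK2, ADH1, GAL1) named by choice. Alternatives changed scaling, centring, slide terms, blocks, the extracts fitted, moderation, unnamed probes and arrays or replicates left out. Sequences and coordinates are not used here. Figures used Python 3.11.15 and matplotlib 3.10.9.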

Additional observations from a re-analysis of the deposited data

Results flagged for a closer look

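Of the agent effects tested for a difference between 75 and 30 min or between rad53Δ and wild-type cells, 5 passed, each by the contrast itself. In wild-type cells the MMS difference from untreated was larger at 75 min than at 30 min for TDH2 by 1.35, for PGK1 by 1.13, for TPI1 by 0.86 and for GPM1 by 0.80, each in both replicates. TPI1 and GPM1 did not pass with the wild-type extracts fitted alone, where FBA1, TDH1, TDH3, ENO1 and CDC19 passed beside TDH2 and PGK1 (9.76% of features upwards). For TDH1 the MMS response was lower in rad53Δ than in wild-type cells, with a difference of -1.09. Without wild-type replicate 1, GPM1 alone of the first 4 passed, and without replicate 2 TPI1 alone. The TDH1 difference passed in no fit that left out 1 replicate. No group held more than 2 extracts, so single extracts were not tested as outliers.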

How the results depend on the processing

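Among 1990 recomputed member values, none that passed in either fit changed sign. Of the 1990, 1773 kept their side of the threshold, 123 lost significance and 94 gained it. The 1773 include values that passed in neither fit, and some of those changed sign. Of 220 recomputed medians and pair counts, 202 stayed within their limits. With arrays scaled to equal spread, the members' median was -0.26 for galsicΔP 40 against 0 min (reversed from 0.22) and -0.22 for the MMS strain difference, and pairs past the threshold were 1 against TDH3 and 2 against TDH2. Without replicate 2 at 0 min the 40 min median was -0.51, and without replicate 1 it was 0.59. Slide terms gave 0.034 for the course difference between nrm1Δ and parent. Without arrays of conflicting labels the HU strain difference was -0.46. With slide terms, with named genes only and with no replicate block, 1 ENO pair passed. Without the replicate block, members called were 8 in CPT minus HU (32.5% of features called) and 8 in the parent from 40 to 100 min (28.9%). In own fits, unadjusted p fell below 0.05 in 6 comparisons against TDH3, 10 against TDH2 and 4 for ENO1 minus ENO2. Leaving out 1 replicate in turn moved the HU strain difference between -0.65 and -0.47, the MMS strain difference between -0.35 and -0.23, and the CPT difference between 75 and 30 min between -0.0032 and 0.13. Where no cause is named, the cause was not tested. The galsicΔP 40 min comparison could not be fitted without loop 1, and alternatives that do not apply to a comparison were not run.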
